A study of Mus musculus with 12 samples.

Results

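Nr0b1, Klf4, Klf2, Zfp42, Esrrb, Tbx3, Tfcp2l1 and Prdm14 are transcription factors of the network that holds mouse embryonic stem cells in the naive, or ground, state of pluripotency. They were taken by name, and every probe set given to 1 of them alone was read, which made 8 genes of 18193 measured and 17 probe sets of the 34945 with exactly 1 gene symbol. The cells were embryoid bodies of strain 129, aggregates that form when mouse embryonic stem cells are grown in suspension without leukaemia inhibitory factor (LIF), and they were sampled at day 2.5. The genotypes were wild type (WT), Smad4-null and a knock-down of Trim33 (Trim33-KD). Embryoid bodies of every genotype were treated for 2 h, either with 50 ng/ml activin (ac) or with SB431542 (SB, 10 mM as labelled), an inhibitor of the activin and nodal receptors. Total RNA of each of the 6 groups was hybridized to 2 Affymetrix arrays, 12 in all. All groups were grown without LIF and none was left untreated. The sources used here do not give how Smad4 was removed and Trim33 lowered, or whether each line was 1 clone, so line and genotype change together. They do not say either that replicates were separate cultures, and p-values may then cover only technical spread.

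In the naive state these factors act beside the core factors Pou5f1, Sox2 and Nanog, and bind to one another's genes. LIF signals through STAT3 to Klf4 and Tfcp2l1, the Wnt pathway relieves repression of Esrrb by Tcf7l1, and Prdm14 keeps FGF signalling and the DNA methyltransferases low. When LIF is withdrawn the naive factors decline and the cells pass to formative and then primed epiblast, from which nodal and activin signalling through Smad2, Smad3 and Smad4 induces the primitive streak. Smad4 is the partner that the receptor-activated Smads share, and Trim33 is a nuclear protein that binds Smad2 and Smad3.

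The windows just upstream of 3 of the genes are shown because these genes stand for the patterns described here. Nr0b1 had the largest difference of the 8 factors between Smad4-null and WT, Zfp42 had the profile closest to their mean, and Tfcp2l1 had the smallest difference. Each window holds the 250 bases before the RefSeq start in the assembly GRCm38.p6, read 5′ to 3′ on the gene's own strand, and capitals mark matches to the motifs named after them.
Nr0b1, chrX:86191525-86191774, plus strand: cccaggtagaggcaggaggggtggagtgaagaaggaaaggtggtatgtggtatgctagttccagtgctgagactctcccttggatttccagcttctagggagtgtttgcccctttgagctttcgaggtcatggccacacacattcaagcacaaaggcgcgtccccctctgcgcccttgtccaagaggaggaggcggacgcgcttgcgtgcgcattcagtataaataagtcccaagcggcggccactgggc
Zfp42, chr8:43307010-43307259, minus strand: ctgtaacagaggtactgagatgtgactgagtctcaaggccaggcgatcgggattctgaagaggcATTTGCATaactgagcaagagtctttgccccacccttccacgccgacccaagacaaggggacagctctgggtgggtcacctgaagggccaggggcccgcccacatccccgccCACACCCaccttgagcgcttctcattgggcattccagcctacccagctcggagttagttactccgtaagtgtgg
Tfcp2l1, chr1:118627695-118627944, plus strand: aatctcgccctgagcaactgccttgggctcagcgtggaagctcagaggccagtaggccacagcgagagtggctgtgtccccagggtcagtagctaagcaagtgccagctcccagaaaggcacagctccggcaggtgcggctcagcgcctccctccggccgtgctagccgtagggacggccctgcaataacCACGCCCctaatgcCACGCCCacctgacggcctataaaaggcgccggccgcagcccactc
The first capitals in the Zfp42 window are an octamer, the motif of Pou5f1 (ATGCAAAT, 186 bases before the start), and the second are a Klf motif (GGGTGTG, 74 bases before the start). The Tfcp2l1 window held the Klf motif GGGCGTG at 60 and at 46 bases before the start. All 4 matches lay on the strand opposite to the gene, so the letters printed are the reverse complement. No motif of the search was found in the Nr0b1 window.

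RefSeq windows were at hand for 6 of the 8 factors, none for Tbx3 or Prdm14, and Esrrb had more than 1, which made 7 windows of 32851. Both strands were searched. The octamer was in 1 of the 7 windows and in 1.60% of all windows, GGGTGTG was in 2 (Zfp42 and Esrrb) and in 6.93%, and GGGCGTG was in 1 and in 7.55%. The other motifs were in none of the 7. They were those of STAT3 (TTCCNGGAA, in 0.913% of all windows), Esrrb (TCAAGGTCA, 0.387%), the Tcf factors (ATCAAAG, 3.21%), the Smads (GTCTAGAC, 0.167%, and CAGACA, 17.1%) and Foxh1 (TGTGNATT, 3.18%). A match is a description of letters, and a motif absent from these windows may lie elsewhere.

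The arrays were checked before the factors were read. Array medians ran from 5.85 to 6.30 (log2 signal), and the SD was lower on Smad4-null-ac replicate 1 (3.13) and on WT-SB replicate 2 (3.07) than elsewhere (3.24 to 3.39). The ribosomal RNA control was low on replicate 1 of WT-ac (5.53) and of WT-SB (5.82), with 7.56 to 10.2 elsewhere. Trim33 had a mean log2 signal of 11.72 ± 0.16 (SD, n = 4) in WT and of 10.18 ± 0.23 (n = 4) under its knock-down, so 34.4% was left. Smad4 signal was 11.96 ± 0.07 in WT and 12.17 ± 0.06 in Smad4-null, a difference of 0.20 with a limma adjusted p of 0.142. Where the Smad4 probe set lies relative to the deletion is not known here, so it does not check the label. Pluripotent identity was read from the core factors, which had WT log2 signals of 13.21 for Pou5f1, 12.71 for Sox2 and 12.60 for Nanog (n = 4 each).

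In Smad4-null embryoid bodies, 7 of the 8 naive factors were higher than in WT and none was lower. The differences of the 7 ran from 0.82 to 1.71 on the log2 scale, or 1.77-fold to 3.27-fold, and the exception was Tfcp2l1. A call is a limma adjusted p under 0.05 over all 18193 genes, with the treatments averaged, and each gene is read on its brightest probe set. By that call 7.12% of all genes were raised. The median difference over the 8 factors was 1.29, beside -0.03 over all genes. In these bulk samples fewer cells of a type and less RNA per cell cannot be told apart.

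Nr0b1 (probe set 1417760_at), an orphan nuclear receptor also known as Dax1 that binds Pou5f1 and Esrrb, had log2 signals of 8.94 and 9.05 in WT-ac and 8.97 and 8.91 in WT-SB. In Smad4-null they were 10.73 and 10.74 with activin and 10.50 and 10.73 with SB431542. In Trim33-KD they were 9.07 and 9.05 with activin and 8.96 and 9.29 with SB431542. All 4 Smad4-null arrays were high and all others low, and the lowest Smad4-null array stood 1.45 above the highest WT array. Nr0b1 rose by 1.71 ± 0.10 (SE; 95% interval 1.47 to 1.94; limma adjusted p = 0.000114), and 171 genes had a larger difference. Its group means ordered as both WT groups, both Trim33-KD groups and then both Smad4-null groups, and the arrays of the 2 treatments overlapped within every genotype.

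Esrrb (probe set 1436926_at), an orphan nuclear receptor that can stand in for Nanog in self-renewal, had log2 signals of 10.30 and 10.21 in WT-ac and 10.44 and 10.33 in WT-SB. The Smad4-null arrays read 11.76 and 11.62 with activin and 11.43 and 11.74 with SB431542. The Trim33-KD arrays read 10.17 and 10.01 with activin and 10.14 and 10.37 with SB431542. The Smad4-null arrays lay apart from the WT arrays by 0.99, and the Trim33-KD arrays overlapped WT from the lower side. Esrrb rose by 1.32 ± 0.10 in Smad4-null (95% interval 1.08 to 1.56; limma adjusted p = 0.000333).

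Klf4 (probe set 1417394_at), a zinc finger factor and reprogramming factor downstream of LIF and STAT3, had log2 signals of 8.22 and 8.69 in WT-ac and 8.40 and 8.70 in WT-SB. In Smad4-null they were 9.82 and 10.03 with activin and 10.04 and 10.20 with SB431542. In Trim33-KD they were 8.81 and 8.69 with activin and 8.71 and 9.02 with SB431542. Every Smad4-null array was at least 1.12 above the highest WT array, and the Trim33-KD arrays ran from within the WT range to above it. Klf4 rose by 1.52 ± 0.14 in Smad4-null (95% interval 1.19 to 1.86; limma adjusted p = 0.000624).

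Klf2 (probe set 1448890_at), a related zinc finger factor of the ground state, was bright in every group. Its log2 signals were 11.53 and 11.41 in WT-ac and 11.60 and 11.82 in WT-SB. With activin the Smad4-null signals were 12.76 and 12.54, and with SB431542 they were 12.30 and 12.53. With activin the Trim33-KD signals were 11.51 and 11.71, and with SB431542 they were 11.86 and 12.16, so the SB431542 arrays of Trim33-KD stood between WT and Smad4-null. Klf2 rose by 0.94 ± 0.12 in Smad4-null (95% interval 0.66 to 1.22; limma adjusted p = 0.00198), with a gap to WT of 0.48. The Trim33-KD-SB arrays lay below those of both Smad4-null groups. The 2 Smad4-null groups were hardly parted, at 12.5342 for the higher SB431542 array and 12.5355 for the lower activin array. Their treatment difference was 0.23 (limma adjusted p = 0.833).

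Zfp42 (probe set 1418362_at), known as Rex1 and used as a marker of naive cells, had log2 signals of 11.14 and 11.31 in WT-ac and 11.21 and 11.26 in WT-SB. Smad4-null gave 12.39 and 12.50 with activin and 12.47 and 12.61 with SB431542. Trim33-KD gave 11.47 and 11.42 with activin and 11.43 and 11.59 with SB431542. The 3 genotypes did not overlap at all for Zfp42, in the order WT, Trim33-KD, Smad4-null, while the treatments overlapped within each. Zfp42 rose by 1.26 ± 0.08 in Smad4-null (95% interval 1.07 to 1.46; limma adjusted p = 0.000173). It had the smallest SE of the 8 factors.

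Prdm14 (probe set 1444390_at), a PR domain factor of naive cells and of primordial germ cells, had log2 signals of 7.70 and 7.98 in WT-ac and 7.61 and 7.62 in WT-SB. In Smad4-null they were 9.05 and 9.19 with activin and 9.10 and 9.18 with SB431542. In Trim33-KD they were 8.20 and 7.59 with activin and 7.82 and 7.57 with SB431542. The Smad4-null arrays lay close together and at least 1.07 above WT, while Trim33-KD and WT overlapped. Prdm14 rose by 1.40 ± 0.15 in Smad4-null (95% interval 1.05 to 1.75; limma adjusted p = 0.00105).

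Tbx3 (probe set 1448029_at), a T-box repressor that LIF signalling sustains in naive cells, was the only factor outside the upper 50% of genes by mean signal. Its log2 signals were 7.14 and 7.11 in WT-ac and 6.18 and 6.72 in WT-SB. The Smad4-null arrays read 7.84 and 7.63 with activin and 7.50 and 7.45 with SB431542. The Trim33-KD arrays read 7.51 and 7.78 with activin and 6.52 and 7.27 with SB431542. The Smad4-null arrays stood above WT by 0.31 or more, and Trim33-KD-ac lay among the Smad4-null arrays. Tbx3 rose by 0.82 ± 0.19 in Smad4-null (95% interval 0.38 to 1.27; limma adjusted p = 0.0235). That call was lost when any 1 of the WT or Smad4-null arrays except WT-SB replicate 2 was left out (adjusted p 0.0505 to 0.0746, difference 0.69 to 0.87).

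Tfcp2l1 (probe set 1418091_at), a grainyhead-family factor that STAT3 induces, had log2 signals of 9.74 and 9.57 in WT-ac and 9.67 and 9.28 in WT-SB. Smad4-null gave 9.75 and 9.60 with activin and 9.41 and 9.87 with SB431542. Trim33-KD gave 9.25 and 9.30 with activin and 9.29 and 9.39 with SB431542. The WT and Smad4-null arrays were interleaved, and 2 of 4 Smad4-null arrays were above the highest WT array. The Smad4-null difference was 0.09 ± 0.13 (limma adjusted p = 0.707), and its 95% interval, -0.22 to 0.40, lies below the intervals of Nr0b1, Klf4, Klf2, Zfp42, Esrrb and Prdm14. Among all genes 6827 had a larger difference.

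**Figure D1:**
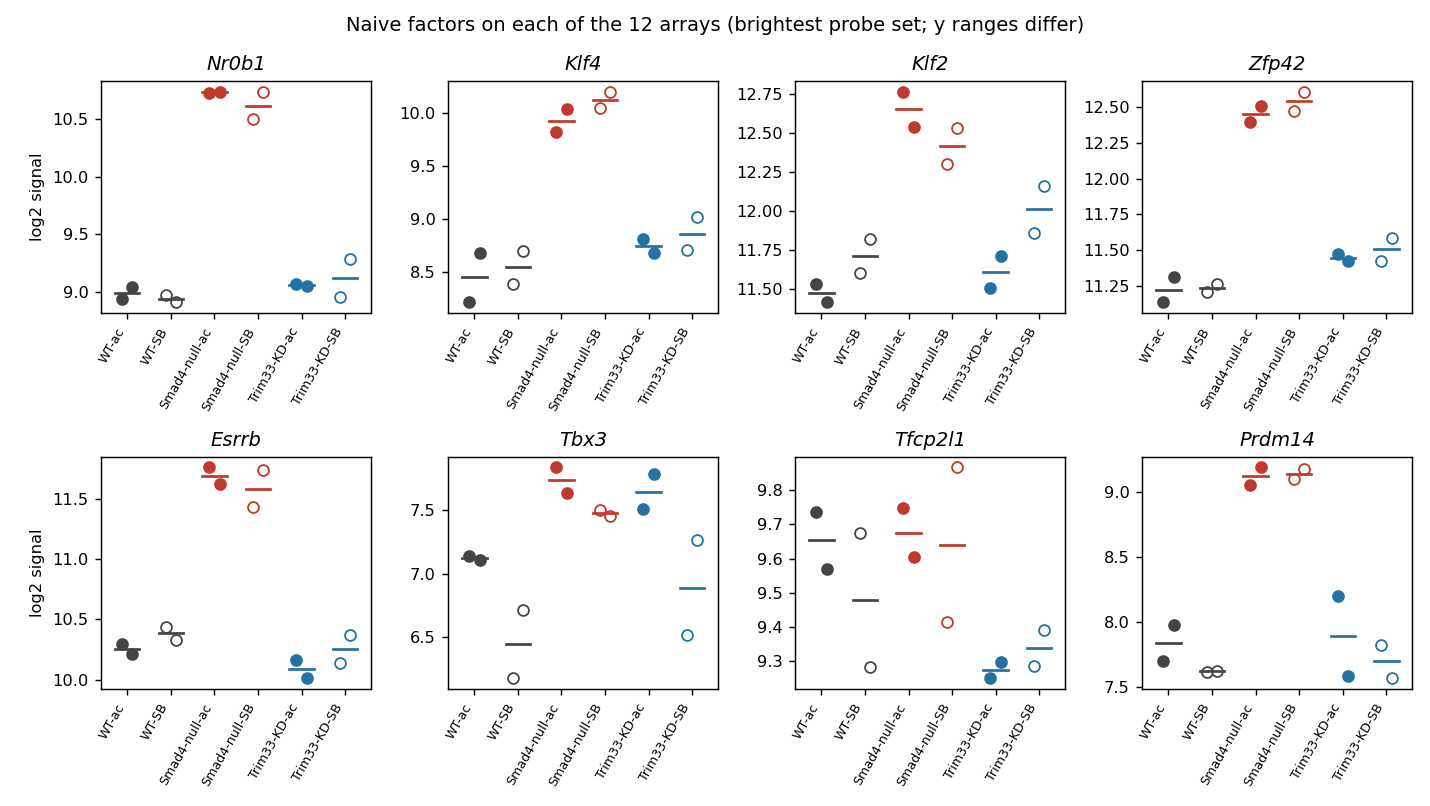
Log2 signal of the brightest probe set of each naive factor on each of the 12 arrays. Points are arrays (filled with activin, open with SB431542), bars are means of the 2 arrays, colours are genotypes, and the y ranges differ between panels. The Smad4-null arrays stand above the WT arrays for 7 factors and are interleaved with them for Tfcp2l1.

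All 4 Smad4-null arrays lay above all 4 WT arrays for 7 of the 8 factors, as for 10.8% of all genes. The shift was seen on each Smad4-null array. Taken as the median over the 8 factors relative to the WT means, it was 1.25 and 1.29 on the arrays with activin and 1.18 and 1.40 on those with SB431542. That 7 or 8 of the factors were above the highest WT array on each follows from the separation of the 7 factors. The array of narrow signal spread, Smad4-null-ac replicate 1, held the 1.25, and without it and WT-SB replicate 2, 6 factors were called, with only Tbx3 lost (adjusted p = 0.0635).

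The difference was also read within each treatment, with 2 arrays against 2. With activin, 6 factors were raised in Smad4-null, as were 3.69% of all genes. The differences were 1.74 for Nr0b1, 1.47 for Klf4, 1.44 for Esrrb, 1.28 for Prdm14, 1.22 for Zfp42 and 1.18 for Klf2 (limma adjusted p 0.00108 to 0.0122). Tbx3 differed by 0.61 (adjusted p = 0.215) and Tfcp2l1 by 0.02 (adjusted p = 0.957).

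With SB431542, the same 6 factors were raised, as were 2.98% of all genes. The differences were 1.67 for Nr0b1, 1.57 for Klf4, 1.53 for Prdm14, 1.30 for Zfp42, 1.20 for Esrrb and 0.71 for Klf2 (limma adjusted p 0.00162 to 0.0423). Tbx3 differed by 1.03 (adjusted p = 0.0586) and Tfcp2l1 by 0.16 (adjusted p = 0.666). These calls borrow the spread of all 6 groups. Fitted on the 2 compared groups alone, 0 of the factors were called in either treatment, with adjusted p of 0.0873 to 0.111 for the 6 factors with activin and 0.116 to 0.195 with SB431542. In the fit of all groups, Prdm14 with activin lost its call without WT-ac replicate 1 or either Smad4-null-ac array (adjusted p 0.0561 to 0.0794). Klf2 with activin lost it without Smad4-null-ac replicate 1 (0.0507) or WT-ac replicate 2 (0.0530), and Prdm14 with SB431542 without Smad4-null-SB replicate 2 (0.0556). Klf2 with SB431542 lost its call in 16 of 24 alternatives. They include the fit with the replicate number as a block (adjusted p = 0.0549) and the fits without any 1 array other than those of Trim33-KD-SB, where its difference ran from 0.59 to 0.82. Leaving out 1 Trim33-KD-SB array gave Tbx3 a call with SB431542 (adjusted p = 0.0337), so that 7 factors were called.

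**Figure D2:**
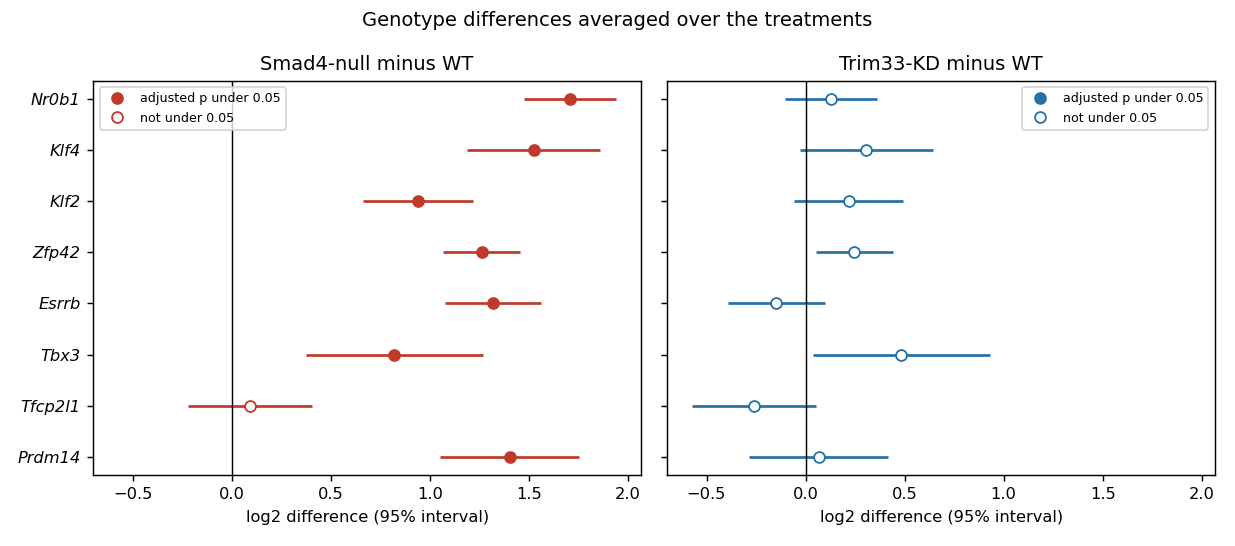
Log2 difference from WT of each naive factor, averaged over the treatments, in Smad4-null (left) and Trim33-KD (right). Points are limma estimates, lines their 95% intervals, and filled points are calls at an adjusted p under 0.05. In Smad4-null 7 factors are filled, from 0.82 to 1.71, and in Trim33-KD none is.

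In Trim33-KD embryoid bodies 0 of the 8 naive factors were called against WT by limma. Over all genes 0.649% were called in either direction, a share at which 0 of 8 is no result about the factors. At an unadjusted p under 0.05 there were 2 factors, Zfp42 and Tbx3, beside 17% of all genes. The median difference over the factors was 0.17, beside -0.04 over all genes. Zfp42 differed by 0.25 ± 0.08 (95% interval 0.05 to 0.44; limma adjusted p = 0.209), and Tbx3 by 0.48 ± 0.19 (0.04 to 0.93; adjusted p = 0.263).

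For the other 6 factors the Trim33-KD intervals included 0. The differences were 0.31 for Klf4 (-0.03 to 0.64), 0.22 for Klf2 (-0.06 to 0.49), 0.13 for Nr0b1 (-0.11 to 0.36), 0.07 for Prdm14 (-0.28 to 0.41), -0.15 for Esrrb (-0.39 to 0.10) and -0.26 for Tfcp2l1 (-0.57 to 0.05). Only Zfp42 had all 4 Trim33-KD arrays above all 4 WT arrays, by 0.11 or more, a pattern held by 6.12% of all genes. On the single arrays, the median over the 8 factors relative to WT was 0.17 and 0.10 with activin and 0.04 and 0.34 with SB431542. Within each treatment limma again called 0 factors, with 0.0055% of all genes called with activin and 0% with SB431542, and 0 factors had an unadjusted p under 0.05 in either.

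The difference between both altered genotypes was tested directly. In Trim33-KD, 6 of the 8 factors were lower than in Smad4-null, as were 7.32% of all genes. The differences were -1.58 for Nr0b1, -1.47 for Esrrb, -1.34 for Prdm14, -1.22 for Klf4, -1.02 for Zfp42 and -0.72 for Klf2 (limma adjusted p 0.000163 to 0.00571). Tbx3 differed by -0.34 (95% interval -0.78 to 0.11; adjusted p = 0.278) and Tfcp2l1 by -0.35 (-0.66 to -0.04; adjusted p = 0.119). The comparison shares its Smad4-null arrays with the comparison of Smad4-null and WT.

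The second question of the design is whether the factors respond to the 2 h treatment. Neither activin nor SB431542 gave a call for any of the 8 factors in any genotype by limma. Over all genes 0.033% were called in WT, 0.011% in Smad4-null and 0.011% in Trim33-KD. At such shares 0 of 8 is no result about the factors. The median difference of activin minus SB431542 over the factors was 0.02 in WT, 0.07 in Smad4-null and -0.06 in Trim33-KD, beside -0.05, 0.06 and -0.05 over all genes. At an unadjusted p under 0.05 there were 1 factor in WT, 0 in Smad4-null and 2 in Trim33-KD, and 4.02%, 6.81% and 4.21% of all genes.

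Tbx3 had the largest treatment differences of the 8 in every genotype. With activin it was 0.67 above SB431542 in WT (95% interval 0.04 to 1.30), 0.26 in Smad4-null (-0.37 to 0.89) and 0.76 in Trim33-KD (0.12 to 1.39), and none of these passed the adjusted threshold. On the brightest probe set all activin arrays stood above the SB431542 arrays of the same genotype in all 3, as for 0.638% of all genes. The factor is singled out here for its size, so this is a description. A further Tbx3 probe set, 1437479_x_at, read 6.74 and 6.38 in WT-ac and 5.75 and 5.61 in WT-SB. It read 6.86 and 7.08 in Smad4-null-ac and 6.87 and 7.21 in Smad4-null-SB, where the treatments overlapped. In Trim33-KD it read 7.16 and 7.15 with activin and 6.75 and 5.73 with SB431542. The low arrays on this probe set were those of WT-SB and 1 of Trim33-KD-SB. Its differences were 0.88 in WT, -0.07 in Smad4-null and 0.92 in Trim33-KD.

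Klf2 was lower with activin than with SB431542 by 0.24 in WT and by 0.40 in Trim33-KD (95% interval of the latter -0.79 to -0.01) and was higher by 0.23 in Smad4-null. The remaining factors differed by between -0.20 and 0.22 between the treatments in each genotype. For Zfp42, with an SE of 0.12, the differences were -0.01, -0.09 and -0.06 in WT, Smad4-null and Trim33-KD, and for Nr0b1, with an SE of 0.14, they were 0.05, 0.12 and -0.06.

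The test of whether the treatment difference itself changes with genotype by limma called 0 factors and 0% of genes, both for Smad4-null against WT and for Trim33-KD against WT. At an unadjusted p under 0.05 there were 0 factors in either, beside 7.24% and 2.67% of all genes. For Klf2 the response in Smad4-null minus that in WT was 0.47 (95% interval -0.08 to 1.02; limma adjusted p = 0.730) and for Tbx3 it was -0.41 (-1.31 to 0.48). In Trim33-KD minus WT the values of the 8 factors ran from -0.24 to 0.08.

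**Figure D3:**
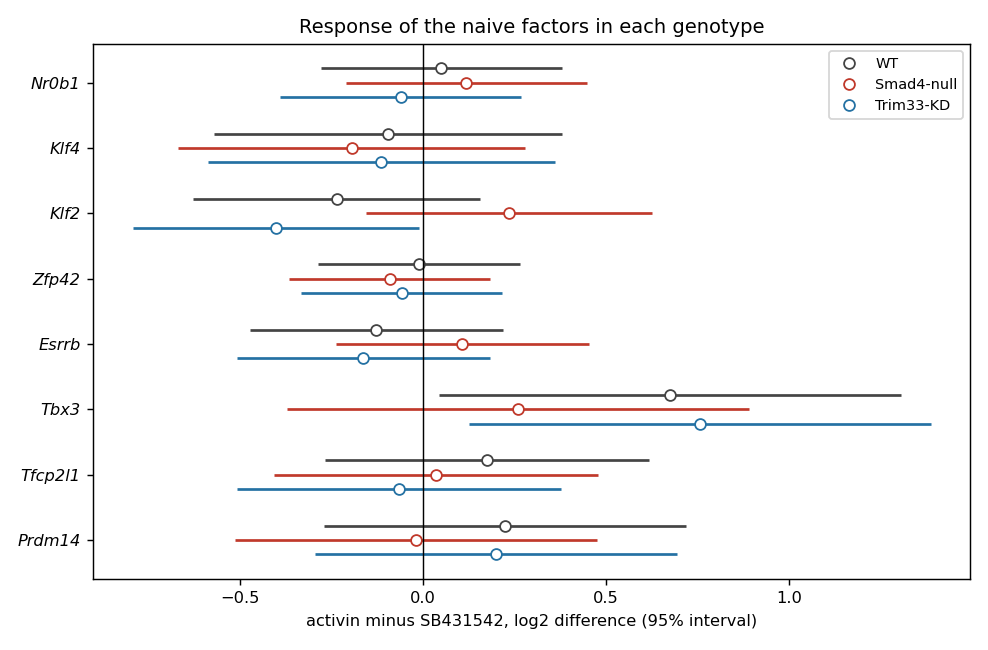
Activin minus SB431542 log2 difference of each naive factor in WT, Smad4-null and Trim33-KD, with 95% intervals from limma. All points are open because none had an adjusted p under 0.05. Tbx3 has the largest value in each genotype, 0.67, 0.26 and 0.76, and all intervals include 0 except those of Tbx3 in WT and Trim33-KD and of Klf2 in Trim33-KD.

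The further probe sets of the factors were read as a check of the brightest ones. Over all 17, with adjustment over 34945 probe sets, 10 were raised in Smad4-null, as were 4.69% of all probe sets, 0 were lowered, and 16 had a positive difference. The second Klf4 probe set, 1417395_at, rose by 0.94 ± 0.19 (limma adjusted p = 0.0175), less than the brightest (1.52). The Esrrb probe set 1441921_x_at rose by 0.99 ± 0.17 (adjusted p = 0.0110), and the Tbx3 probe set 1437479_x_at by 0.89 ± 0.22 (adjusted p = 0.0428).

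Another Esrrb probe set, 1422986_at, did not part Smad4-null from WT as the brightest one did. It read 8.62 and 7.44 in WT-ac and 8.73 and 6.81 in WT-SB, 8.45 to 8.81 in Smad4-null and 6.74 to 7.28 in Trim33-KD. Both WT arrays that were high on it, replicate 1 of each treatment, are the arrays with the low ribosomal RNA control, whose part in the value was not tested. Its Smad4-null difference was 0.75 ± 0.42 (limma adjusted p = 0.329). Its difference of Trim33-KD minus Smad4-null was -1.60 (limma adjusted p = 0.0494), beside -1.47 on the brightest probe set. The 3 remaining Tbx3 probe sets and both remaining Tfcp2l1 probe sets were dim, with genotype means from 1.04 to 4.24, and none was called. Against WT, limma called 0 of the 17 probe sets in Trim33-KD, where 0.155% of all probe sets were called, a share at which 0 of 17 is no result about the factors.

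**Figure D4:**
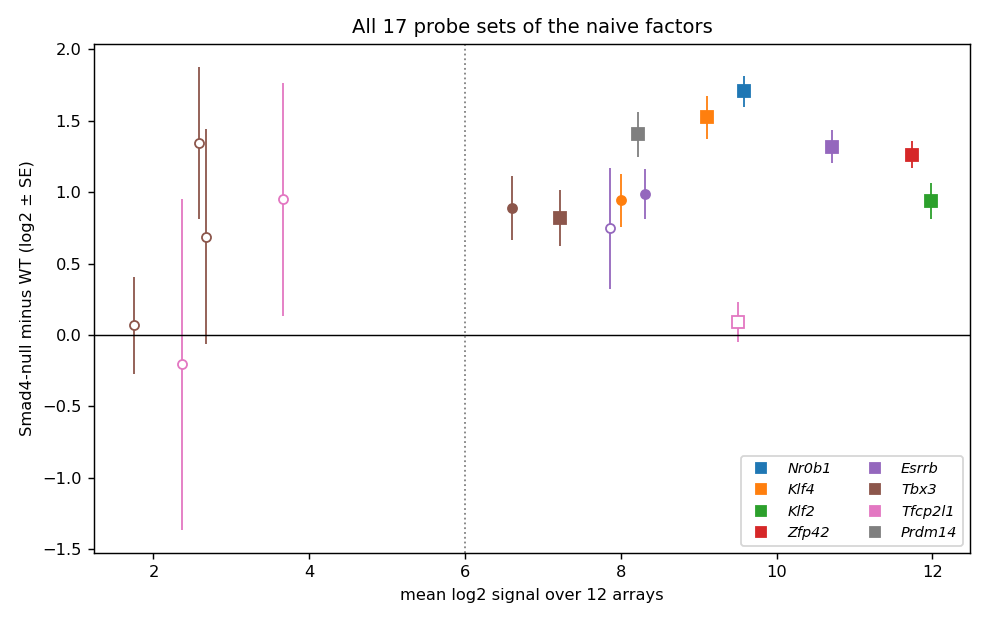
Smad4-null minus WT log2 difference of all 17 probe sets of the naive factors against their mean log2 signal over 12 arrays. Squares are the brightest probe set of a gene and circles the others, bars are SE, filled symbols are calls over 34945 probe sets, and the dotted line marks a log2 signal of 6. Filled symbols appear only to the right of that line, and the bars of 4 of the 5 dim probe sets left of it are wider than those of all others.

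Gene order was used to see whether the factors moved with their chromosomal surroundings, with the 20 nearest genes of the upper 50% by signal. The median Smad4-null difference of the neighbours lay between -0.22 (Prdm14) and 0.22 (Zfp42), below the factor's own difference at all 8. No neighbour had a larger difference than the factor at Nr0b1, Klf4, Klf2, Esrrb, Tbx3 and Prdm14. At Nr0b1 the largest were AU015836 (1.61, limma adjusted p = 0.0282), Mageb16 (1.22, 0.000653) and Dmd (1.16, 0.000320), with a median of 0.11 over the 20. Dmd is also the nearest gene in the ranking by profile below. At Zfp42 it was 1 of 20, the adjacent gene Triml1, which was raised by 1.96 (limma adjusted p = 0.00478). At Tfcp2l1 it was 3 of 20.

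Of all genes in the upper 50% by signal, 10.1% were raised and 15.3% lowered in Smad4-null, and the neighbours are read against these shares. At Zfp42 6 of 20 were raised and 1 lowered, at Nr0b1 5 raised and 2 lowered, at Tbx3 2 raised and 5 lowered, and at Prdm14 0 raised and 7 lowered. Zfp42 and Klf2 lie on chromosome 8, where the median difference of 522 genes was 0.21, beside -0.03 over all genes. The differences of both factors, 1.26 and 0.94, were above that median.

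**Figure D5:**
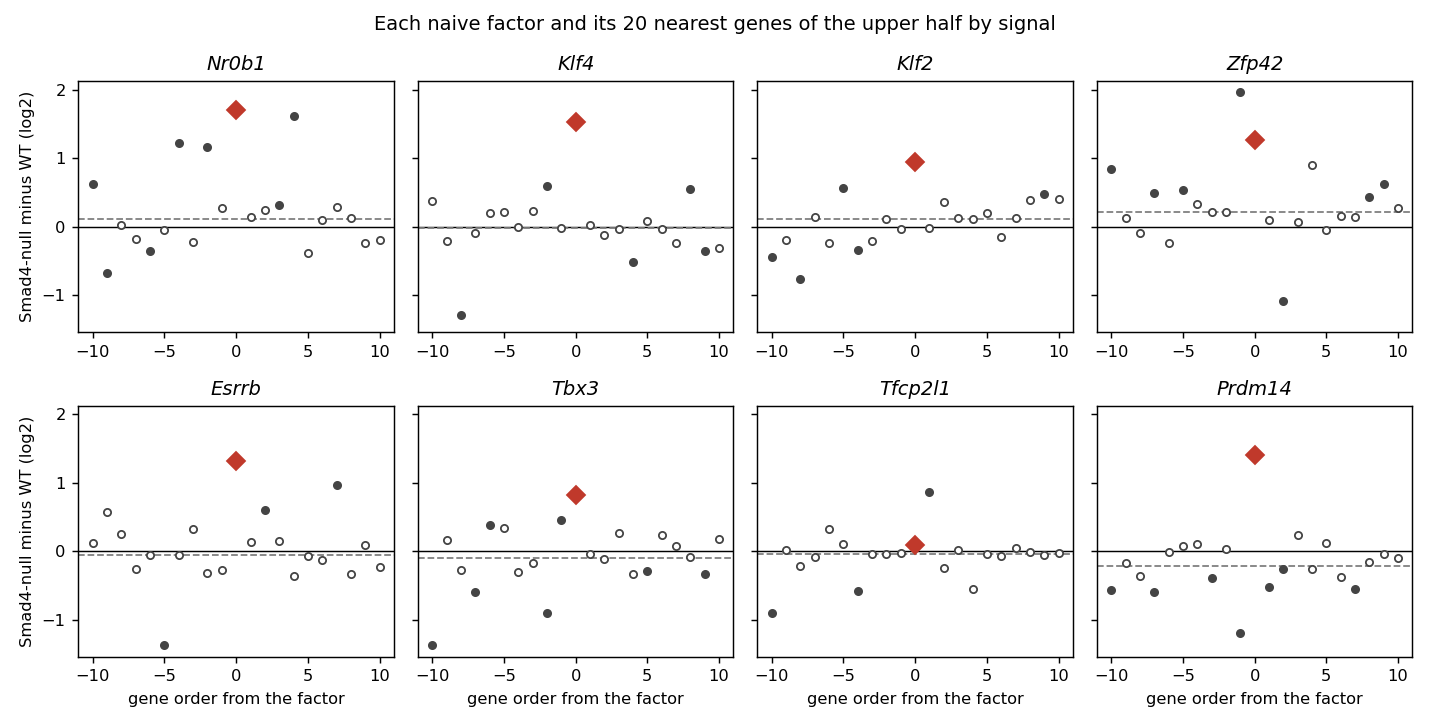
Smad4-null minus WT log2 difference of each naive factor (red diamond) and of its 20 nearest genes of the upper 50% by signal, in gene order. Filled points are calls at an adjusted p under 0.05, open points are not, and the dashed line is the neighbours' median. The diamond is the highest value in 6 panels, and in the Zfp42 panel the adjacent Triml1 lies above it at 1.96.

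Genes whose profile over the 6 group means was most like the mean profile of the 8 factors were ranked by root mean square distance among 9089 other genes of the upper 50% by signal. The nearest were Dmd (0.0503 log2 units), Lrp2 (0.0680), Tango6 (0.0725), Foxp1 (0.0743), Dtna (0.0747), Btbd11 (0.0774), Pipox (0.0818) and Kcnk5 (0.0820). The rank follows from the profile alone. Of the factors themselves, Zfp42 was closest to that profile (0.0791), and Tbx3 (0.391) and Tfcp2l1 (0.431) were farthest.

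Ranked against each factor alone, the nearest genes were Hsf2bp for Nr0b1 (0.0764), Tdrd12 for Klf4 (0.0775), Rwdd2a for Klf2 (0.0847) and Btbd11 for Zfp42 (0.0603). They were Ccdc136 for Esrrb (0.0423), Pim1 for Tbx3 (0.101), Rcor2 for Tfcp2l1 (0.0324) and Gli1 for Prdm14 (0.0929).

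The naive factors were set beside the rest of the pluripotency network. The core factors did not share one direction. In Smad4-null Sox2 rose by 0.49 (limma adjusted p = 0.0265), while Pou5f1 fell by 0.31 (adjusted p = 0.0281) and Nanog fell by 0.38 (adjusted p = 0.0396). Over all genes 7.12% were raised and 11.3% lowered in Smad4-null, and the counts of this list and the following ones stand beside these shares. Leaving out Nanog, 16 further genes of the naive network were measured, of which 7 rose and 1 fell, with a median of 0.41. The largest were Fgf4 (1.56), which codes for a growth factor, Fbxo15 (1.52), Tcl1 (1.35) and Zfp57 (0.67), which maintains imprints. The 1 that fell was Klf5 (-0.56), the third Klf factor of the network. In Trim33-KD limma called 0 of these 16, and 4 had an unadjusted p under 0.05, beside 0.649% and 17% of all genes.

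The list of the LIF and STAT3 pathway holds targets of STAT3 as well as components upstream of the factors. Of its 10 genes 3 were raised and 2 lowered in Smad4-null, beside 7.12% and 11.3% of all genes. Gadd45g rose by 2.44 and the STAT3 target Pim1 by 0.88, whereas the kinase genes Jak2 and Jak1 fell by 0.44 and 0.43. Socs3, a feedback target of STAT3, differed by 0.02 (limma adjusted p = 0.964) and Stat3 by -0.40 (adjusted p = 0.0878). In Trim33-KD the receptor gene Lifr fell by 0.87 (adjusted p = 0.0284). Of 7 genes of the Wnt and Tcf7l1 axis 0 were called in Smad4-null by limma. At an unadjusted p under 0.05 there were 2, beside 30.5% of all genes, a share at which 2 of 7 is no result about the axis. Tcf7l1 differed by 0.12 (limma adjusted p = 0.498).

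Genes of the states that follow the naive one were read next. Of 16 genes of formative and primed epiblast 2 rose and 6 fell in Smad4-null, beside 7.12% and 11.3% of all genes. The largest differences were the falls of Wnt8a (-3.48), Fgf5 (-1.43), Sall2 (-1.30) and Etv4 (-1.20). The 2 that rose were Pou3f1 (0.92, limma adjusted p = 0.0124) and Dnmt3a (0.46, adjusted p = 0.00847). The other 8 were not called, among them Otx2 (0.20, adjusted p = 0.337) and Dnmt3b (0.07, adjusted p = 0.628). In Trim33-KD Otx2 fell by 0.95. All 8 primitive streak genes fell in Smad4-null, among them Gsc, Mixl1, Evx1 and Lhx1. Gsc, Evx1 and Lhx1 were under a log2 signal of 6 on all 4 Smad4-null arrays and Mixl1 on 2, so their differences are given with lower values set to 6. They were then -2.09 for Gsc, -4.09 for Mixl1, -2.38 for Evx1 and -2.83 for Lhx1, each at least that large. The summed linear signal of all 8 streak genes was 653 to 875 on the Smad4-null arrays, 4767 to 10587 on the WT arrays and 2405 to 6722 on the Trim33-KD arrays. So the streak genes were low on the arrays on which the naive factors were high. In Trim33-KD all 8 streak genes were lower than in WT too, with differences from -1.34 to -0.71. There limma called 0 of the 8, and 5 had an unadjusted p under 0.05, beside 0.649% and 17% of all genes. The part of a changed mix of cells in the rise of the factors was not tested.

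Markers of other cells were read in the same way, and the part of each in the factors' rise was not tested. Of 8 germ cell genes, a state that shares Prdm14 with naive cells, 3 rose and 0 fell in Smad4-null, Dazl by 1.53, Prdm1 by 0.95 and Ifitm3 by 0.50. Dppa3 differed by 0.17 (limma adjusted p = 0.633). The summed signal of all 8 germ cell genes was 10234 to 11426 in Smad4-null, 8293 to 9144 in WT and 10138 to 10718 in Trim33-KD. These sums mostly follow Ifitm3, with mean log2 signals of 12.48 in Smad4-null, 11.98 in WT and 12.53 in Trim33-KD. In Trim33-KD limma called 0 of the 8 germ cell genes, and 3 had an unadjusted p under 0.05, beside 0.649% and 17% of all genes. Of 4 measured genes of the 2-cell-like state, Usp17la fell by 0.46 in Smad4-null and rose by 1.11 in Trim33-KD. Summed, the list stood at 239 to 350 in Smad4-null, 353 to 384 in WT and 683 to 830 in Trim33-KD. These sums mostly follow Usp17la, with mean log2 signals of 7.72 in Smad4-null, 8.18 in WT and 9.29 in Trim33-KD. Under a linear signal of 64 on every array were 3 of the 4 in Smad4-null, 2 in WT and 2 in Trim33-KD. The list names 10 genes, and Zscan4c, Zscan4d and Zscan4f had no matching symbol, so the sums do not describe the state.

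Of 9 primitive endoderm genes 4 fell in Smad4-null and 0 rose, beside 11.3% and 7.12% of all genes. They were Col4a1 (-0.55), Gata6, Sox7 and Sox17, the last 3 with values under 6 on 2 to 4 of the Smad4-null arrays and differences of -1.37, -0.33 and -0.58 or larger in size with these set to 6, and the list had sums of 1300 to 1435 beside 1763 to 1991 in WT. Of 9 trophectoderm genes Cdx2 fell, by at least 2.12 with values under 6 set to 6. The list had sums of 3125 to 3518 in Smad4-null, 3889 to 5050 in WT and 5016 to 11228 in Trim33-KD. These sums mostly follow Krt8 and Krt18, which were not called in Smad4-null (limma adjusted p 0.295 and 0.715) or in Trim33-KD (0.229 and 0.289). Of 7 neuroectoderm genes Pax6 rose (1.59) and Nes fell (-1.68). Lhx2 was called raised too, but was under 6 on all 4 WT and 3 of 4 Smad4-null arrays, so no size is given. The list had sums of 758 to 899 beside 1082 to 1279 in WT. The lower sums mostly follow Nes, with mean log2 signals of 9.80 in WT and 8.12 in Smad4-null, while the median difference of the list was 0.23. Under a log2 signal of 6 on every array were 4 of the 7 in WT and 2 in Smad4-null. In Trim33-KD Pax6 fell by 0.80. Of 10 genes of fibroblasts, which serve as feeder cells, Dcn rose, by at least 1.86 with its WT values, all under 6, set to 6, while Twist1 (-0.97, with 1 Smad4-null array under 6), Thy1 (-0.76) and Col1a2 (-0.48) fell. The fibroblast sums were 608 to 749 in Smad4-null and 714 to 813 in WT, with 6 and 7 of the 10 genes under a linear signal of 64 on every array.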

How the data were processed

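Expression was measured on Affymetrix mouse arrays, 12 in 6 groups of 2. Per the labels, what the authors deposited are log2 signals for each probe set, and they were used unchanged. The sources used here do not give the summarization method, and the submitters' processing notes name limma without a version. Symbols came from the platform table (34945 of 45101 probe sets had exactly 1), and the probe set with the highest mean stood for each of 18193 genes. All arrays entered 1 limma fit with a mean for each group (limma 3.58.1 in R 4.3.3, lmFit and eBayes, 6 residual degrees of freedom), with Benjamini-Hochberg adjustment over all genes and a threshold of 0.05. The fit was tested on simulated data. The members, lists and alternatives were chosen with earlier results of these data known. Named are all 8 factors, in each other list up to 4 called members with the largest Smad4-null difference and up to 2 for Trim33-KD, the core factors and the nearest genes by profile. Triml1, AU015836, Mageb16, Stat3, Socs3, Tcf7l1, Pou3f1, Dnmt3a, Dnmt3b, Krt8, Krt18, Dppa3 and Klf5 were added after their values were seen. The Smad4-null value of Otx2 was added in the same way. Alternatives changed the normalization (quantile, median), the genes (upper 50%, all probe sets, mean of probe sets, floor of 64), the model (prior, array weights, fewer groups, replicate block), the fold minimum (1.5) and the arrays kept. Promoter windows and gene order are RefSeq's on GRCm38.p6, with 18031 genes placed. Of the listed genes, 12 had no matching symbol and were not analysed here. The number of arrays limits the precision.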

Additional observations from a re-analysis of the deposited data

Results flagged for a closer look

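One value lay apart from the others of its genotype. The lowest of the 4 Smad4-null arrays for Nr0b1, Smad4-null-SB replicate 1, read 10.50, and the other 3 read 10.73 to 10.74, so its distance to the nearest, relative to the range of the 4, was above Dixon's 95% critical value. The array was still 1.45 above the highest WT array. Of 24 sets of 4 arrays tested (8 factors in 3 genotypes) this was the 1 past the value, and chance flags about 1 in 20.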

How the results depend on the processing

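Each value was recomputed under 12 changes of the processing and 12 fits that each left out 1 array. None of the 25 called values changed sign, and 39 of the 71 uncalled values did in at least 1 fit. The 7 factors raised in Smad4-null were 6 to 7 throughout. The 6 lowered in Trim33-KD against Smad4-null were 6 without any 1 array and 6 to 7 otherwise. All counts of 0 stayed at 0, but in the main fit these comparisons called at most 0.649% of all genes. At such shares a count of 0 is no result about the factors. Nr0b1, Klf4, Klf2, Zfp42, Esrrb and Prdm14 kept their Smad4-null call in all 24, and Tbx3 was lost in 9 of 23, among them the mean of its probe sets (adjusted p = 0.101). Within treatments the counts were least stable. With only the groups compared, with fewer arrays, the 6 raised factors became 0 with activin and 0 with SB431542, and without the arrays of narrow spread they became 4 and 3. Leaving out 1 array gave 4 to 6 with activin, lowest without Smad4-null-ac replicate 1, and 4 to 7 with SB431542, lowest without Smad4-null-SB replicate 2. Median centring moved the median of all genes from -0.12 to 0.05 in Smad4-null minus WT with SB431542 and from -0.03 to 0.14 in Trim33-KD minus Smad4-null, and it ended no call of a factor. Of all genes 1295 were raised in Smad4-null, but 771 without the narrow arrays, 806 with a 1.5-fold minimum, and 756, 805 and 849 without Smad4-null-SB replicate 2, Smad4-null-SB replicate 1 and WT-ac replicate 1.

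Replicate numbers were not taken to pair the arrays, since the correlation of same-numbered deviations over 15 pairs of groups ran from -0.30 to 0.39 with 6 over 0.1. With the replicate block 7 factors were raised in Smad4-null, 6 with activin, and 5 rather than 6 with SB431542, where Klf2 was lost (adjusted p = 0.0549), and Trim33-KD had 0.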
